A study of Mus musculus with 12 samples.

Results

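The genes described here are 40 heat shock and unfolded protein response genes, a list of chaperones, folding enzymes, stress sensors and stress-induced regulators. They were matched by gene symbol to the probe sets of the array, and the brightest probe set stood for a gene that had several. Of the 40 genes, 36 were measured by a probe set with their symbol alone, out of 22180 such genes on the array. All 36 exceeded the brightness limit, a log2 value above 5.29 in at least 3 arrays, which 15348 genes passed. Dnaja1 and Pdia4 were measured only by probe sets that carry a second symbol, and Hsp90ab1 and Hsf1 are not analysed here.

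The cells were LSK cells, a sorted bone marrow fraction that lacks lineage markers, carries SCA1 and cKIT and holds most blood stem cells and early progenitors. They came from wild type (WT) or NIPA knockout (KO) mice older than 20 months on a C57BL/6 background, with the LSK cells of 3 mice pooled into each sample. Pools were cultured in serum with IL-3, IL-6 and SCF, received 4 Gy or no irradiation, and were harvested at 3 h. The 4 groups, untreated WT, irradiated WT, untreated KO and irradiated KO, held 3 arrays each. The labels do not say whether untreated and irradiated arrays came from the same pools, so p-values measure the spread between these arrays, which may in part be technical. Fewer cells of a type and less RNA per cell cannot be told apart in such pools.

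Cells meet misfolded protein with separate programmes in separate compartments. In the cytosol, heat shock factor 1 raises HSP70, HSP90, small heat shock proteins and their cochaperones. In the endoplasmic reticulum (ER), the sensors IRE1, PERK and ATF6 raise ER chaperones and degradation factors, and PERK shares with other kinases the phosphorylation of eIF2alpha, which lowers protein synthesis and favours translation of ATF4. Low protein synthesis and a tight control of protein quality are known features of haematopoietic stem cells.

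Zc3hc1, the gene of NIPA, had log2 values of 7.67 to 8.47 in the 6 WT arrays and of 5.61 to 5.82 in the 6 KO arrays. The sources used here do not give the part of the gene that the knockout lacks. Array medians lay between 5.74 and 5.85, and correlations across the genes tested, which are not independent replicates, were 0.960 to 0.986 within groups. Between groups they were 0.9395 to 0.9877, so the ranges overlapped. Among markers of the sorted cells, 10 of 12 were measured and all 10 exceeded the brightness limit. Their mean log2 level was 8.81 to 9.26 in untreated and 8.65 to 9.18 in irradiated arrays. Markers of other cells were measured as well. The limit was exceeded by 6 of 7 B cell, 8 of 9 granulocyte and 5 of 6 mast cell markers. It was also exceeded by 6 of 7 endothelial and stromal and 3 of 7 T and NK cell markers. All 7 plasma cell, 7 monocyte, 8 erythroid and 5 megakaryocyte markers measured exceeded it. Passing the limit thus does not set the sorted cells apart. The markers that did not pass were Ms4a1, Ly6g, Fcer1a, Lepr, Cd3e, Cd4, Cd8a and Klrb1c. Untreated KO array 2 and irradiated KO array 3 stood apart in B-lineage markers. Ebf1, a factor of early B cells, stood at 9.51 and 9.62 there, against 5.32 to 7.42 in the other 10 arrays.

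As an average of both genotypes, the share of the 36 genes past the test for irradiation was near that of all genes. The genes that passed moved by less than 2-fold. Averaged over both genotypes, 5 rose and 1 fell among the 36, or 16.7%, against 16.5% of all genes tested (limma, adjusted p under 0.05, n = 6 against 6 arrays). By direction, 6.90% of all genes were called higher and 9.60% lower, or 1059 and 1473 genes, which became 1259 and 1250 after cyclic loess scaling. At an unadjusted p under 0.05 there were 15 of the 36, against 30.1% of all genes. The median log2 change of the 36 was 0.18, and that of all genes was close to 0 (-0.004). The genes that rose were Ppp1r15a and Ddit3 of the eIF2alpha pathway, the cochaperone Dnajb4 and the ER lectin chaperones Calr and Canx. The gene that fell was Hspa4, a relative of HSP70. Without both KO arrays that stood apart in B-lineage markers, an alternative chosen after seeing the data, 2 of the 36 were called, Ppp1r15a and Dnajb4, and 9.14% of all genes. The changes of the others there were 0.36 for Calr (limma adjusted p = 0.083), 0.32 for Canx (0.066), 0.66 for Ddit3 (0.088) and -0.21 for Hspa4 (0.12).

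Ppp1r15a encodes GADD34, the subunit that directs protein phosphatase 1 to eIF2alpha and so restores protein synthesis after stress. Its log2 expression stood at 8.65, 8.48 and 8.32 in untreated WT arrays, 9.18, 8.92 and 9.47 in irradiated WT arrays, 8.41, 8.0 and 8.59 in untreated KO arrays and 8.78, 9.68 and 9.45 in irradiated KO arrays. All 6 irradiated arrays lay above all 6 untreated arrays, a separation that 8.31% of all genes showed in either direction. The average change was 0.84 (SE 0.16, limma adjusted p = 0.0039), or 1.79-fold.

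Ddit3 encodes CHOP, a transcription factor induced through ATF4 and known for its part in stress-driven cell death. Untreated WT arrays stood at 7.98, 8.52 and 8.19 and irradiated WT arrays at 8.48, 8.97 and 9.31, while untreated KO arrays stood at 8.42, 8.79 and 8.71 and irradiated KO arrays at 8.71, 9.67 and 9.73. The groups overlapped, since irradiated array 1 of either genotype lay within the range of untreated arrays. Ddit3 rose by 0.71 on average (SE 0.19, limma adjusted p = 0.024, 1.64-fold). The call was lost without untreated WT array 1 or 3 (adjusted p = 0.055 each), irradiated WT array 3 (0.061), untreated KO array 1 (0.061) or irradiated KO arrays 2 or 3 (0.062 and 0.061).

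Dnajb4, a J-domain protein that hands substrates to HSP70, had 6.56, 6.36 and 6.39 in untreated WT arrays, 6.68, 6.98 and 7.12 in irradiated WT arrays, 5.93, 6.49 and 6.29 in untreated KO arrays and 6.51, 7.14 and 7.22 in irradiated KO arrays. Within each genotype the irradiated arrays were higher without overlap. The average change was 0.60 (SE 0.14, limma adjusted p = 0.011, 1.52-fold).

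Calr, the soluble lectin chaperone calreticulin, had 10.20, 10.51 and 10.33 in untreated WT arrays against 10.41, 10.88 and 10.70 after irradiation, and in KO cells 10.47, 10.26 and 10.23 against 10.85, 10.68 and 10.82. The groups were apart in KO and overlapped in WT. Its membrane-bound relative Canx, calnexin, had 11.62, 11.72 and 11.74 against 11.82, 12.09 and 12.15 in WT and 11.80, 11.77 and 11.62 against 11.96, 12.08 and 12.06 in KO, with all irradiated arrays above all untreated ones. Calr rose by 0.39 (SE 0.10, limma adjusted p = 0.016, 1.31-fold) and Canx by 0.32 (SE 0.08, adjusted p = 0.017, 1.25-fold).

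Hspa4 encodes an HSP110-type protein that serves as nucleotide exchange factor of HSP70. In untreated WT cells its values were 10.39, 10.47 and 10.43, in irradiated WT arrays 10.22, 10.25 and 10.20, in untreated KO arrays 10.36, 10.40 and 10.41 and in irradiated KO arrays 10.12, 10.20 and 10.24. The 6 irradiated arrays all lay below the 6 untreated ones. Hspa4 had the smallest spread within groups of the 36 genes (pooled SD 0.04), and its fall was small, -0.20 (SE 0.06, limma adjusted p = 0.043). The call was lost when any of the 12 arrays was left out, with adjusted p from 0.055 to 0.097, and after cyclic loess scaling (0.11).

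**Figure D1:**
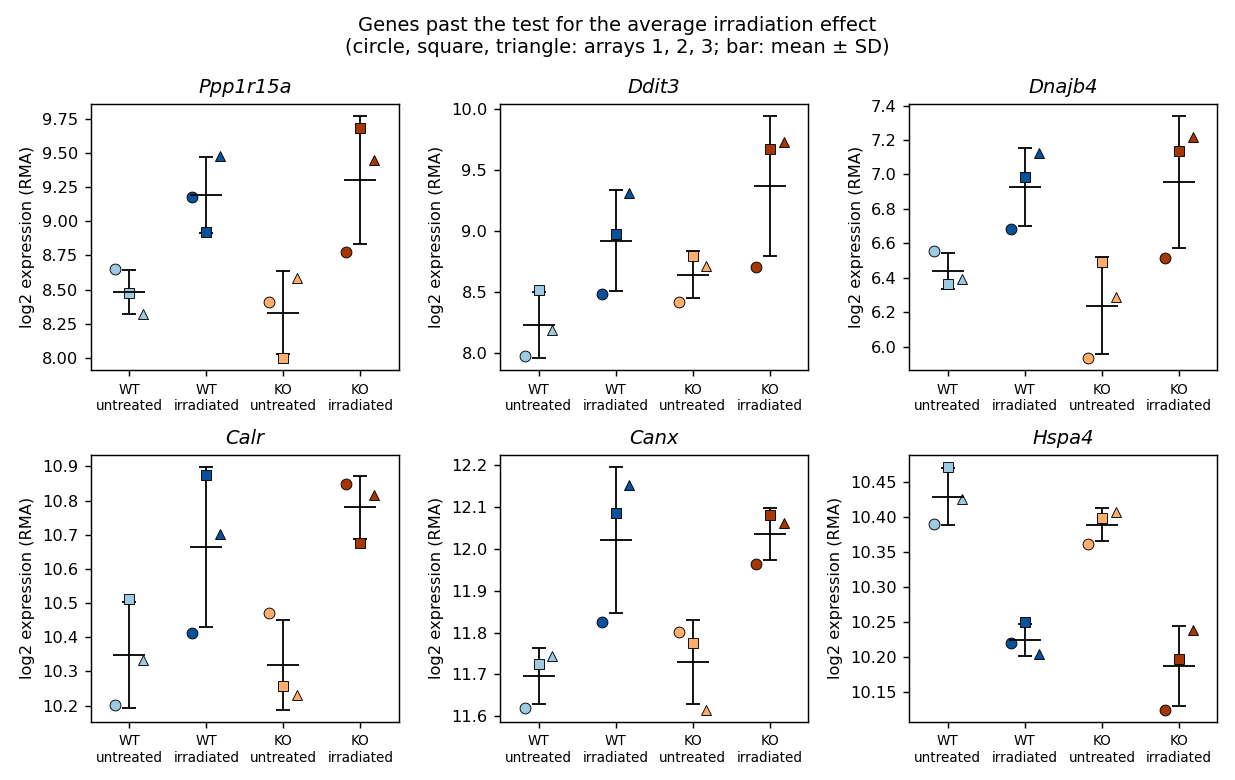
Log2 expression of the 6 genes past the test for the average irradiation effect, with 1 point per array and the mean ± SD of the 3 arrays of each group. Irradiated arrays of Ppp1r15a and Canx lie above all untreated arrays and those of Hspa4 below them, while Ddit3, Dnajb4 and Calr overlap between some groups. The vertical axes differ between panels and do not start at 0.

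Considered by genotype, the calls were fewer. In WT cells 0 of 36 genes passed the test, against 4.83% of all genes, and 6 had an unadjusted p under 0.05 in limma, against 19.8% of all genes. Groups did not overlap for 6 of the 36 in WT, against 24.8% of all genes. The smallest p-values in WT belonged to Ppp1r15a (0.71, SE 0.23, limma adjusted p = 0.10), Canx (0.33, SE 0.11, adjusted p = 0.12) and Ddit3 (0.69, SE 0.27, adjusted p = 0.18). With replicates blocked by number inside each genotype, a pairing that the WT arrays show, Ddit3 passed in WT (limma adjusted p = 0.045). Of all 15348 genes, 1228 were called in WT in that fit, against 742 in the main fit. Ppp1r15a passed when the fit held WT arrays alone (0.048), with 729 of all genes called. It also passed without irradiated KO array 1 (0.036), with 1040 of all genes called. In each of these fits 1 of the 36 genes passed in WT.

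In KO cells 1 of 36 genes passed, against 5.94% of all genes, and 12 had an unadjusted p under 0.05 in limma, against 19.9%. Groups did not overlap for 13 of the 36 in KO, against 23.4% of all genes. The gene called was Ppp1r15a, with a change of 0.97 (SE 0.23, limma adjusted p = 0.027, 1.96-fold), and its call was lost without untreated KO array 1 or 2 (0.068 and 0.12), without irradiated KO array 2 or 3 (0.11 and 0.096), with only the KO arrays in the fit (0.083) and without both KO arrays high in B-lineage markers (0.30). Dnajb4 lay just outside, with 0.72 (SE 0.20, adjusted p = 0.052), and Calr had 0.46 (SE 0.14, adjusted p = 0.069). With the block within genotype, Ppp1r15a, Dnajb4, Calr and Ddit3 passed in KO, with 9.06% of all genes, although KO arrays of like number did not all deviate together. Without irradiated KO array 1 the genes called in KO were Ppp1r15a, Dnajb4, Ddit3 and Hsph1, while the share of all genes called also rose, to 10.2%. Without irradiated WT array 1 they were Ppp1r15a, Dnajb4 and Calr, with 6.12% of all genes.

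Arrays numbered 1 of the irradiated groups stood nearer to the untreated arrays than the others for several genes. Leaving out both, an alternative chosen after seeing the data, gave 11 of 36 genes called on average, with Hspa5, Hspa8, Hsph1, Herpud1, Edem1 and Xbp1 added and Hspa4 lost, while 21.9% of all genes were called. Leaving out irradiated KO array 1 alone gave 10, with 22.2% of all genes. With the replicate block within genotype 7 genes were called on average, Psat1 and Xbp1 in addition to 5 of the 6, without Hspa4, and 21.6% of all genes.

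**Figure D2:**
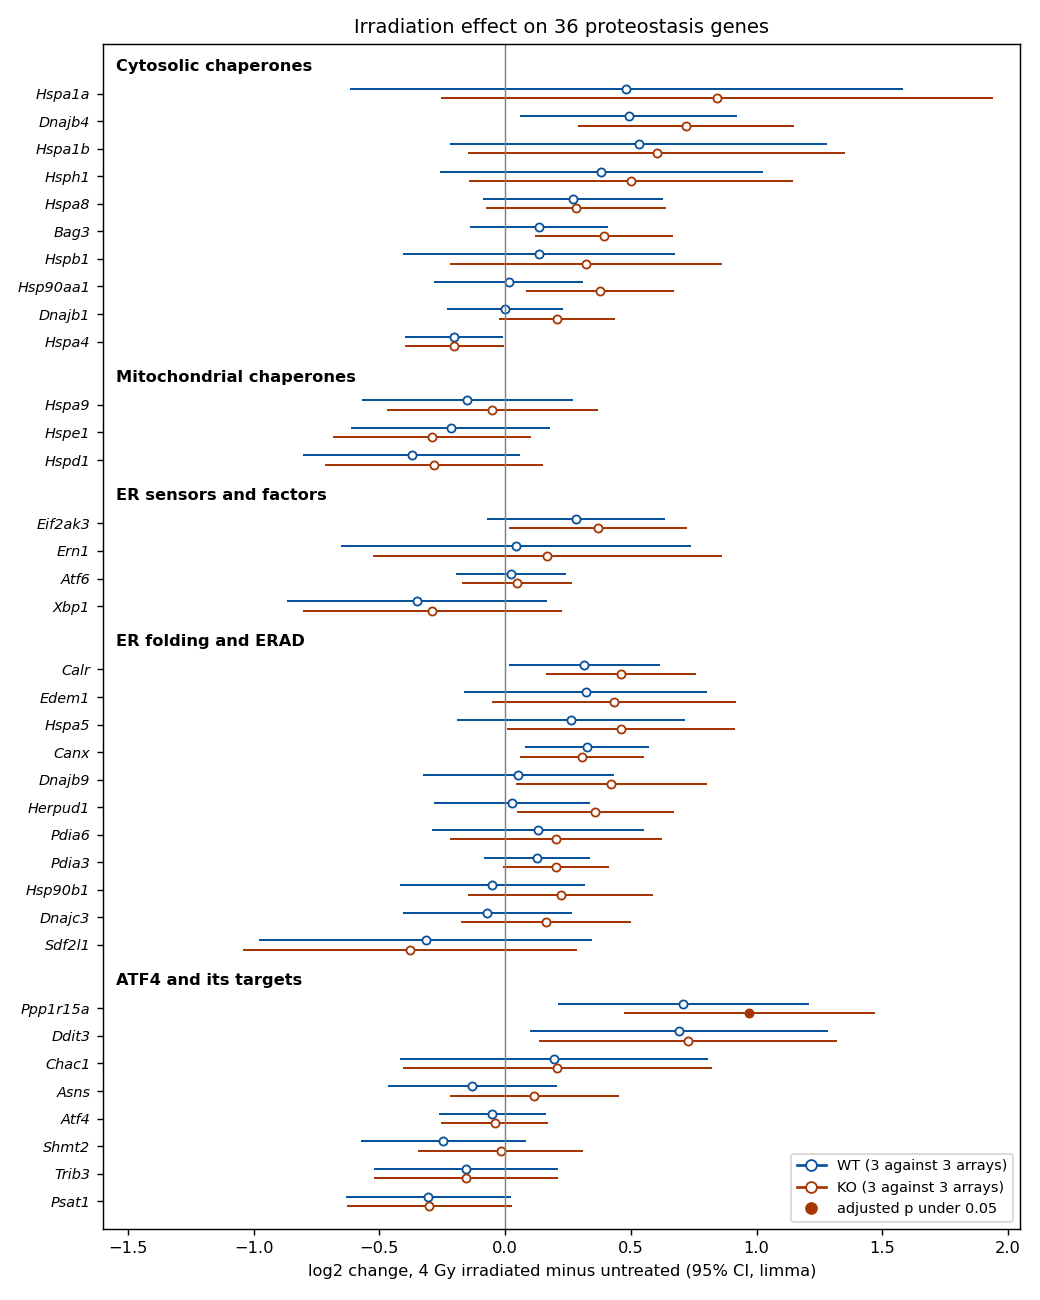
Log2 change after irradiation with its 95% confidence interval for the 36 genes, in WT (blue) and KO (brown), grouped by compartment and role. The filled point marks the 1 change past the limma test within a genotype, Ppp1r15a in KO at 0.97, and the longest intervals are those of Hspa1a.

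Cytosolic chaperones had 10 measured genes. The median average change was 0.27, with 9 values above 0 and 1 below, beside 7515 of 15348 above 0 over all genes. Dnajb4 rose and Hspa4 fell, 2 of 10 beside 16.5% of all genes. The inducible HSP70 genes Hspa1a and Hspa1b, which heat shock factor 1 raises first in a classical heat shock, did not pass. Hspa1a had 9.43, 9.81 and 8.45 in untreated WT arrays, 9.44, 9.89 and 9.81 in irradiated WT arrays, 9.68, 7.71 and 9.60 in untreated KO arrays and 9.12, 10.50 and 9.90 in irradiated KO arrays. Untreated WT array 3 and untreated KO array 2 were low, and the other 4 untreated arrays lay within the irradiated range.

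Hspa1b followed with 7.58, 7.91 and 6.64 in untreated WT, 7.77, 7.99 and 7.96 in irradiated WT, 7.91, 6.65 and 7.46 in untreated KO and 7.52, 8.32 and 7.98 in irradiated KO arrays. The same arrays were lowest as for Hspa1a. These genes are near-identical copies, so probes may read both, and the probe set that carries both symbols was dim (mean log2 value 5.16). Their average changes were 0.66 (95% interval -0.11 to 1.44, limma adjusted p = 0.24) for Hspa1a and 0.57 (0.04 to 1.09, adjusted p = 0.14) for Hspa1b, so that changes of over 2-fold lay within both intervals. Hspa1a and Hspa1b had the widest spread within groups of the 36 genes, with pooled SDs of 0.75 and 0.51, above those of 99.4% and 97.5% of all genes tested.

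Hspa8, the constitutive HSP70, had 11.98, 12.30 and 12.18 in untreated WT, 12.14, 12.75 and 12.39 in irradiated WT, 12.20, 12.33 and 12.09 in untreated KO and 12.31, 12.43 and 12.73 in irradiated KO arrays. Its average change was 0.28 (SE 0.12, limma adjusted p = 0.13), and its 3 other probe sets gave 0.25, 0.27 and 0.30. Hsp90aa1, the inducible cytosolic HSP90, had changes of 0.01 in WT and 0.38 in KO (adjusted p = 0.97 and 0.13). Its irradiated KO arrays, at 8.42, 8.38 and 8.75, all exceeded the untreated KO arrays at 8.26, 8.20 and 7.97, while in WT the groups overlapped. Bag3, an HSP70 cochaperone of selective autophagy, had 0.26 on average (adjusted p = 0.061) and was called in 3 of 21 alternatives. Hsph1, an HSP110 protein, had 0.44 (adjusted p = 0.18), and its irradiated KO arrays were spread widely. Dnajb1, the HSP40 partner of HSP70, had 0.10 (adjusted p = 0.39). The small heat shock protein gene Hspb1 was the dimmest of the 36 (mean 5.54) and had 0.23 (adjusted p = 0.43), with 0.13 in WT and 0.32 in KO. Its second probe set was dimmer still (mean 4.79) and had 0.16 on average, with 0.41 in WT and -0.09 in KO.

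**Figure D3:**
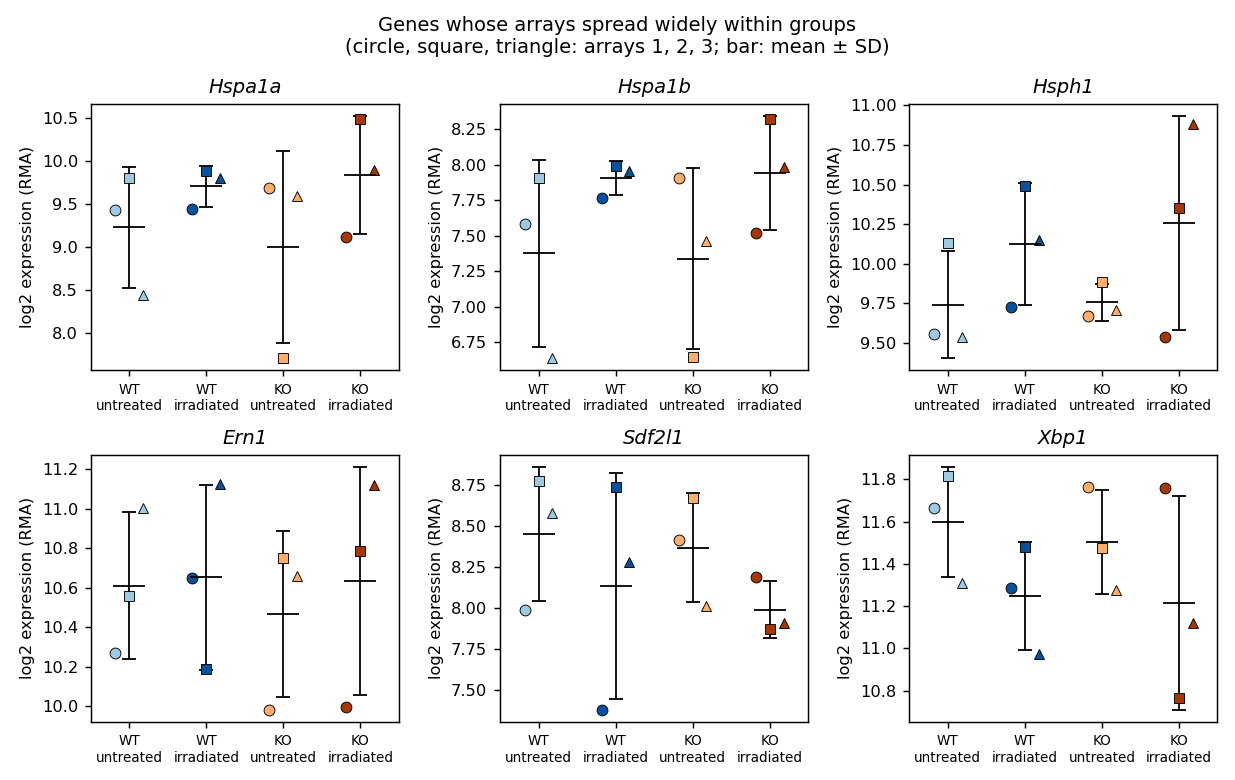
Log2 expression of 6 genes with a wide spread within groups, with 1 point per array and the mean ± SD of each group of 3. Untreated WT array 3 and untreated KO array 2 are lowest for both Hspa1a and Hspa1b, and the arrays of Ern1 run from 9.98 to 11.12. The vertical axes differ between panels and do not start at 0.

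All 3 mitochondrial chaperone genes had values below 0 and none passed the limma test, while 1 had an unadjusted p under 0.05. Over all genes 7828 of 15348 values lay below 0, 16.5% were called and 30.1% had such a p. Hspd1, the chaperonin HSP60, had 8.99, 8.96 and 8.69 in untreated WT, 8.32, 8.87 and 8.34 in irradiated WT, 9.08, 9.08 and 8.51 in untreated KO and 8.81, 8.33 and 8.68 in irradiated KO arrays. Irradiated arrays lay in part within the untreated range in both genotypes. Its average change was -0.33 (95% interval -0.63 to -0.02, limma adjusted p = 0.13). Its cochaperonin Hspe1 had -0.25 (adjusted p = 0.205) and Hspa9, the mitochondrial HSP70, -0.10 (adjusted p = 0.68).

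Hspd1 and Hspe1 lie head to head in the genome, and the stretch between them is printed because both promoter windows hold the same heat shock element. Searches were run in RefSeq promoter windows of build GRCm38.p6, from 250 bases before to 50 bases after a start, which 32 of the 36 genes had. The heat shock element was searched on both strands as 3 units, GAA, TTC and GAA or TTC, GAA and TTC, with 2 bases of any kind between units, and occurs in 0.662% of the 27025 genes with a window. It was found for Hspd1, Hspe1 and Hsph1, where the Hsph1 match lies past the start and is not printed. Capitals mark the element, written along the strand of Hspe1, and an overlapping second match follows it in the same stretch.
Hspe1 (chr1:55088044-55088086, plus strand): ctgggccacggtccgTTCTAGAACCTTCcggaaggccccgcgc
The same bases form the Hspd1 match on the other strand. A match describes the letters and is not evidence of binding, and its absence from the windows of Hspa1a and Hspa1b says only that these letters are not in those windows.

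Among the sensors of the unfolded protein response, with a median average change of 0.07, 1 value had an unadjusted p under 0.05. Of 4 genes none passed the limma test, while 16.5% of all genes were called and 30.1% had such an unadjusted p. The value was that of Eif2ak3, the PERK kinase, which had an average change of 0.33 (SE 0.11, limma adjusted p = 0.071), with irradiated arrays above untreated arrays in both genotypes. Atf6 had 0.04 (95% interval -0.12 to 0.19), which leaves out changes of over 1.5-fold in either direction. Ern1, the IRE1 sensor, had 0.11 (SE 0.22, adjusted p = 0.81), and its arrays ran from 9.98 to 11.12 with a pooled SD of 0.47.

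Xbp1, whose transcript IRE1 splices to make the active factor, had 11.66, 11.82 and 11.31 in untreated WT, 11.29, 11.48 and 10.97 in irradiated WT, 11.77, 11.47 and 11.28 in untreated KO and 11.76, 10.77 and 11.12 in irradiated KO arrays. The groups overlapped in both genotypes. Its average change was -0.32 (SE 0.17, limma adjusted p = 0.22), and adjusted p = 0.047 with the replicate block within genotype. The probe set gives a level of the gene as a whole, so the spliced form was not analysed here.

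Among 11 genes of ER folding and ER-associated degradation, 2 rose, Calr and Canx, none fell, and the median average change was 0.19. Of the 11 values 10 lay above 0, and 5 had an unadjusted p under 0.05. Over all genes 7515 of 15348 values lay above 0, 16.5% were called and 30.1% had such a p. Hspa5, the HSP70 of the ER known as BiP, had 9.42, 9.70 and 9.57 in untreated WT, 9.5, 10.04 and 9.93 in irradiated WT, 9.45, 9.71 and 9.28 in untreated KO and 9.64, 9.76 and 10.43 in irradiated KO arrays. Irradiated KO array 3 was the highest of all and the groups overlapped. Its average change was 0.36 (SE 0.15, limma adjusted p = 0.12).

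Edem1, which directs misfolded glycoproteins to degradation, had an average change of 0.38 (limma adjusted p = 0.13), and 0.11 in a dim second probe set (mean 5.29). Pdia3, a disulfide isomerase that works with calreticulin and calnexin, had 0.16 (adjusted p = 0.12). It was called in 1 of 21 alternatives, after cyclic loess scaling. All 6 irradiated arrays of Pdia3 lay above all 6 untreated ones, beside 8.31% of all genes separated in either direction. Herpud1, a scaffold of ER-associated degradation, had 0.03 in WT and 0.36 in KO (adjusted p = 0.94 and 0.17). The J-domain protein gene Dnajb9 had 0.05 and 0.42 (adjusted p = 0.90 and 0.19). Hsp90b1, the ER HSP90, had 0.08 on average, Pdia6 0.17, Dnajc3 0.05 and Sdf2l1 -0.35 (adjusted p = 0.69, 0.46, 0.83 and 0.31).

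The ER stress element, CCAAT and CCACG with 9 bases of any kind between them, was a sequence that several of these ER genes shared. Searched on both strands, it occurs in the promoter windows of 37 of 27025 genes (0.137%) and of 6 of the 32 genes here, all from the ER folding group. As background, ATF6 is known to act at this element together with NF-Y. The stretches are printed 5′ to 3′ along the strand of each gene, with the element in capitals. For Calr and the second match of Hsp90b1 the element lies on the opposite strand, so its complement is read.
Hspa5 (chr2:34772010-34772058, plus strand): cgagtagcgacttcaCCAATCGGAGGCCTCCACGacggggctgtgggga
Hsp90b1, first match (chr10:86705623-86705671, minus strand): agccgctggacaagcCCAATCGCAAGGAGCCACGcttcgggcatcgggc
Hsp90b1, second match (chr10:86705518-86705566, minus strand): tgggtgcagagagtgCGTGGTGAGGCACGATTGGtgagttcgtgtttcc
Calr (chr8:84847060-84847108, minus strand): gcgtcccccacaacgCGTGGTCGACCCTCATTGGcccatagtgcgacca
Canx (chr11:50325785-50325833, minus strand): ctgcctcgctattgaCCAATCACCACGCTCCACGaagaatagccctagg
Dnajc3 (chr14:118937812-118937860, plus strand): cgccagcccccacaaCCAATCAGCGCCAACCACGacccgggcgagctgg
Pdia6 (chr12:17266476-17266524, plus strand): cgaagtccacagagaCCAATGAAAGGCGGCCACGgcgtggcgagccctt
The 6 genes with the element had average changes of 0.36, 0.08, 0.39, 0.32, 0.05 and 0.17 in the order of Hspa5, Hsp90b1, Calr, Canx, Dnajc3 and Pdia6. Only Calr and Canx passed the test among them. The part CCAAT alone is common, in 41.1% of all genes with a window.

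**Figure D4:**
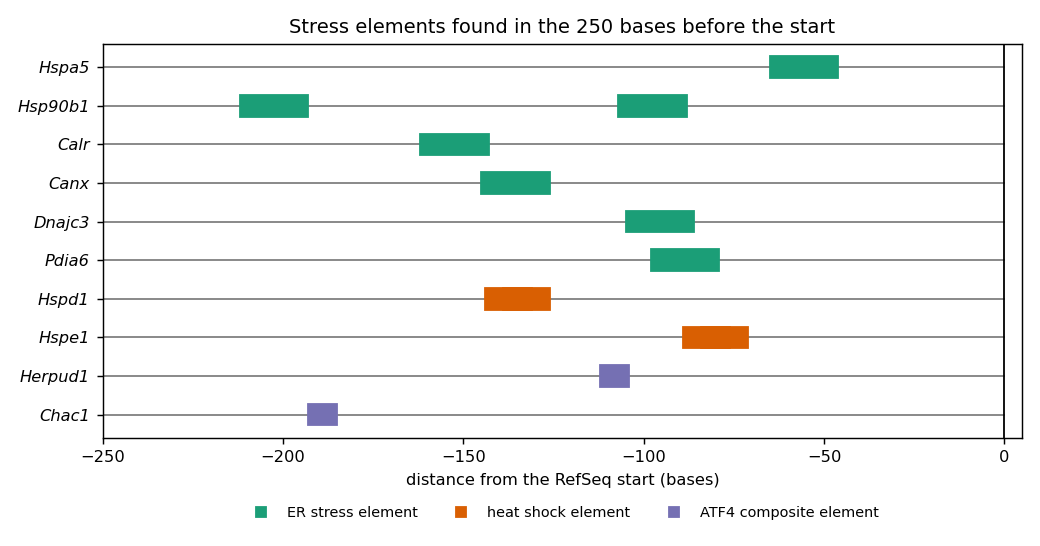
Positions of the ER stress element, the heat shock element and the ATF4 composite element in the 250 bases before the RefSeq start of 10 genes, drawn along each gene's own strand in bases. The ER stress element is found in 6 genes of the ER folding group, and the overlapping heat shock elements of Hspd1 and Hspe1 are the same stretch seen from either side.

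Of ATF4 and its targets 2 of 8 rose (Ppp1r15a and Ddit3) and 0 fell, beside 6.90% higher and 9.60% lower over all genes, with a median average change of -0.03. Atf4 itself, which is controlled mainly through translation, had 12.11, 12.04 and 12.02 in untreated WT, 11.86, 12.05 and 12.11 in irradiated WT, 12.16, 12.17 and 12.16 in untreated KO and 12.12, 12.15 and 12.09 in irradiated KO arrays. The groups overlapped in WT, and in KO all irradiated arrays lay just below the untreated ones. Its change was -0.05 (95% interval -0.20 to 0.10, limma adjusted p = 0.70), which is narrow because its arrays spread little (pooled SD 0.07).

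Targets of ATF4 in amino acid metabolism did not pass. Asns, the asparagine synthetase, had -0.01 (95% interval -0.24 to 0.23) and Shmt2, the mitochondrial serine hydroxymethyltransferase, -0.13. Psat1, a serine synthesis enzyme, had -0.30 (limma adjusted p = 0.069, and 0.045 with the replicate block within genotype). It was called in 5 of 21 alternatives, as many as Hspa4. Trib3, a pseudokinase that CHOP and ATF4 induce, had -0.16 (adjusted p = 0.42). Chac1, which degrades glutathione, had 0.20 (SE 0.20, adjusted p = 0.55). An ATF4 composite element, searched as TTGCATCA on both strands, occurs in 1.03% of all genes with a window and was found here for Chac1 and Herpud1, printed with the element in capitals.
Chac1 (chr2:119351034-119351071, plus strand): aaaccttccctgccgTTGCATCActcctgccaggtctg
Herpud1 (chr8:94386302-94386339, plus strand): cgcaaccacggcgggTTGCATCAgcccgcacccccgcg
The windows of Ddit3 and Ppp1r15a do not hold these letters.

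Other genes of the same pathways were counted from lists written from textbook knowledge. Of 37 other heat shock and cytosolic chaperone genes tested, 5 rose and 2 fell on average (median -0.02), beside the 16.5% called over all genes. Sqstm1, the autophagy receptor p62, rose by 1.00 (SE 0.12, limma adjusted p = 0.00016), the HSP70 gene Hspa2 by 1.07 and the small heat shock protein gene Hspb8 by 0.63, while Hspa14 fell by 0.40. Sqstm1 stood at 11.50 to 12.08 in untreated WT, 12.52 to 12.75 in irradiated WT, 11.30 to 11.62 in untreated KO and 12.37 to 12.84 in irradiated KO arrays, with no overlap between doses. Hspa2 had 6.83 to 7.51 in the 6 untreated and 8.04 to 8.63 in the 6 irradiated arrays.

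Of 37 other unfolded protein response and ER folding genes, 1 rose and 2 fell (median 0.05). That is 8.11%, beside 16.5% of all genes, with 6.90% called higher and 9.60% lower. Crebrf rose by 0.37, while Wfs1, an ER membrane protein, fell by 0.44 (SE 0.08, limma adjusted p = 0.0024) and Mbtps2, the protease that releases ATF6, by 0.50. Of 38 other integrated stress response genes, 4 rose and 2 fell (median 0.01), or 15.8%, near the 16.5% of all genes. Sesn2 rose by 1.74, Atf3 by 1.03 and Ddit4 by 1.00, and Vldlr fell by 1.36. Slc7a11, the cystine transporter, rose by 2.36 (SE 0.48, limma adjusted p = 0.0058), the largest change of the list, and Pck2 fell by 0.45. Both are named after their values were seen. Sesn2 and Ddit4 are also known targets of p53.

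None of the 36 genes passed the limma test for a difference between genotypes. Without irradiation 0 of 36 passed the limma test (0.00652% of all genes, which is Zc3hc1) and 0 had an unadjusted p under 0.05, against 2.14% of all genes. The smallest p-values were those of Dnajb9 (-0.33, 95% interval -0.71 to 0.04), Ddit3 (0.41, -0.18 to 1.00) and Chac1 (0.42, -0.19 to 1.03), with adjusted p = 0.9998 each. After irradiation the counts were again 0 of 36 (0.00652% of all genes) and 0 at an unadjusted p under 0.05 (3.07% of all genes), with Herpud1 at 0.28 (-0.03 to 0.59), Ddit3 at 0.45 (-0.14 to 1.04) and Hsp90aa1 at 0.21 (-0.08 to 0.50). For 33 of the 36 genes at either dose the 95% interval left out a difference of 2-fold, and Hspa1a, Ddit3 and Chac1 were the exceptions.

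Averaged over both doses, 0 of 36 passed the limma test (0.00652% of all genes) and 1 had an unadjusted p under 0.05, against 4.14% of all genes. It was Ddit3, with 0.43 (SE 0.19, adjusted p = 0.9998), ahead of Chac1 with 0.43 (SE 0.20) and Atf4 with 0.11 (SE 0.07). In Chac1 the untreated arrays were 7.54, 7.81 and 7.81 in WT and 8.54, 7.93 and 7.95 in KO, without overlap. Irradiated arrays were 7.46, 7.95 and 8.34 in WT and 7.82, 8.27 and 8.95 in KO, with overlap. Genotypes did not overlap in 2 of the 36 genes without irradiation, Atf4 and Chac1 (7.96% of all genes), in 1 after it, Atf6 (6.40%), and in 0 over all 6 KO against all 6 WT arrays (0.176%).

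None of the 36 genes passed the limma test for a difference between genotypes in the response to irradiation. For the interaction, KO change minus WT change, 0 of 36 and 0% of all genes passed the limma test, and 0 of 36 had an unadjusted p under 0.05, against 1.53% of all genes. The smallest p-values belonged to Hsp90aa1 (0.36, 95% interval -0.05 to 0.78), Herpud1 (0.33, -0.10 to 0.77) and Dnajb9 (0.37, -0.16 to 0.90) and did not reach 0.05. In 33 of the 36 genes the value lay above 0, with a median of 0.11, against 7321 of 15348 genes and a median of -0.01 over all genes. The count above 0 fell to 21 without irradiated WT array 1, 22 without untreated KO array 3, 24 without irradiated KO array 3 and 25 without untreated WT array 2. Single arrays moved the median, to 0.05 without untreated WT array 2, irradiated WT array 1 or irradiated KO array 3, to 0.18 without untreated WT array 3 or untreated KO array 1 and to 0.24 without irradiated WT array 2.

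Arrays of a group differed in the level of whole compartments. As the median deviation from the untreated arrays of the same genotype, the 10 cytosolic chaperones had 0.09, 0.34 and 0.15 in irradiated WT arrays 1, 2 and 3 and 0.15, 0.46 and 0.58 in irradiated KO arrays. The 11 ER folding genes had -0.12, 0.29 and 0.17 in irradiated WT and 0.20, 0.22 and 0.50 in irradiated KO arrays. Mitochondrial chaperones had -0.46, 0.23 and -0.41 in irradiated WT and -0.08, -0.30 and -0.21 in irradiated KO arrays. Irradiated WT array 2 was thus high for all 3 of these groups of genes, and irradiated KO array 3 was highest for the cytosolic and ER groups. Irradiated KO array 3 was also 1 of the 2 arrays with high B-lineage markers.

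**Figure D5:**
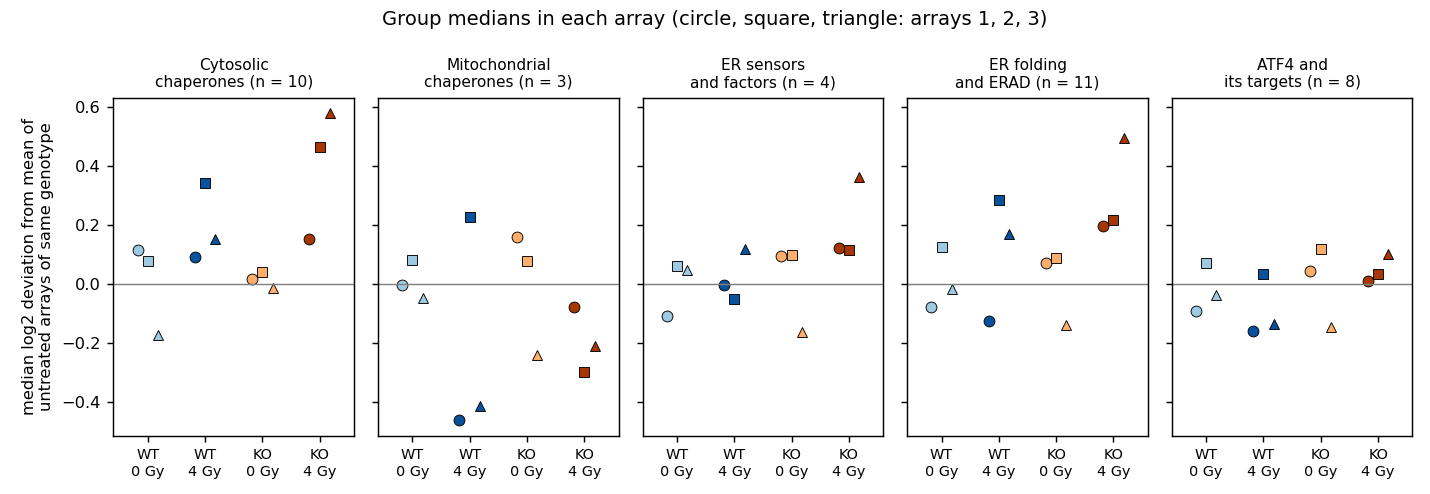
Median log2 deviation of each gene group from the mean of the untreated arrays of the same genotype, with 1 point per array. Irradiated KO array 3 reaches 0.58 for cytosolic chaperones and 0.50 for ER folding genes, while irradiated WT array 1 lies below 0 for the ER folding group.

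Markers of other cells moved beside these values. For the average irradiation effect 9.60% of all genes were called lower and 6.90% higher. Of the markers of the sorted cells, Flt3, Meis1 and Hoxa9 fell after irradiation (3 of 10). The erythroid list fell in 5 of its 8 tested genes, with a mean log2 level of 6.67 to 7.26 in untreated and 6.16 to 6.45 in irradiated arrays. Plasma cell markers, listed because such cells are rich in ER chaperones, had 0 of 7 genes called in limma and means of 6.41 to 7.19 in untreated and 6.70 to 7.38 in irradiated arrays. The B cell list, with 0 of 6 called, had array means of 6.48 to 7.42 in WT, 8.32 in untreated KO array 2, 8.39 in irradiated KO array 3 and 6.66 to 6.99 in the other KO arrays. Of the granulocyte, T and NK cell, megakaryocyte, mast cell and stromal lists 0 genes were called in limma, and 1 of 7 monocyte markers rose. Monocyte means ran from 6.86 to 7.96 in untreated and 6.69 to 8.25 in irradiated KO arrays. In WT they were 7.07 to 7.31 and 6.93 to 7.14. Granulocyte means ran from 7.23 to 8.86 and 7.41 to 8.74 in untreated and irradiated WT arrays. In KO they were 7.33 to 8.40 and 7.65 to 8.44. The part of all these cells in the values of the chaperone and stress genes was not tested.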

How the data were processed

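For each of 12 arrays the deposited log2 values covered 41345 probe sets and were made by the authors with oligo and RMA (background correction, quantile normalization, probe summary) per the submitters' processing notes, with versions, annotation release and genome build not given in the sources used here. Gene symbols came from GEO's platform table (23521 probe sets with 1 symbol, 1814 with several, 16010 with none), and 23328 probe sets matched the RefSeq table by gene ID.

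Tests used limma 3.58.1 under R 4.3.3, by lmFit and eBayes in 1 fit over the 12 arrays in 4 groups, two-sided, Benjamini-Hochberg adjusted over 15348 genes, threshold 0.05. The limit was the 40th percentile of the table. The fit recovered planted changes in simulated data with independent noise between arrays. This check does not cover p-values where arrays of like number deviate together. Precision is limited by 3 arrays a group: the median SE was 0.147 within a genotype and 0.104 averaged. An exact permutation test of 3 against 3 arrays cannot go below p = 0.1.

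Samples of like number deviated together in WT (correlations 0.420 to 0.491) but not in KO (0.474, -0.239 and -0.122). Untreated arrays of like number did so across genotypes (0.102 to 0.233), irradiated ones did not (-0.289 to 0.341). Genes named were those past a test in any contrast, the 3 smallest p where none passed, the defining, brightest, dimmest and most variable members, and up to 4 called genes of each further list. The members and lists were chosen with earlier results of these data known.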

Additional observations from a re-analysis of the deposited data

How the results depend on the processing

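No called value changed sign in any alternative. Dnajb4 and Ppp1r15a were called for the average irradiation effect in all 21 alternatives, Calr and Canx in 20, Ddit3 in 14 and Hspa4 in 5. Counts of the 36 genes in WT moved from 0 to 1 with only the groups compared, with the replicate block and with the replicate block within genotype, and ranged from 0 to 1 with single arrays left out. In KO they moved from 1 to 2 after array medians were subtracted, 3 after cyclic loess, 0 with only the groups compared, 3 with the replicate block and 4 with the block within genotype, and ranged from 0 to 4 with single arrays left out. Without the irradiated arrays numbered 1 of both genotypes, an alternative chosen after seeing the data, the counts were 3 in WT, 4 in KO and 11 on average, and with single arrays left out the average count ranged from 4 to 10. Over all genes the WT count of 742 became 1076 with the replicate block and 1228 with the block within genotype. It became 1147 without both irradiated arrays numbered 1 and 314 to 1040 with single arrays left out. In the same order the KO count of 911 became 1224, 1390, 1702 and 392 to 1573, and it was 557 with only the groups compared. By direction, the 420 higher and 491 lower genes in KO became 402 and 415 after array medians were subtracted. After cyclic loess they became 496 and 407. Without both KO arrays high in B-lineage markers, also chosen after seeing the data, 0 of the 36 genes were called in KO and 2 on average, with 283 and 1403 of all genes. The average genotype count of 1 became 2 after median subtraction, 2 with the mean of probe sets and 4 with the replicate block. The cause was not tested. Counts for the genotype effects and the interaction were 0 of 36 in every alternative that could be fitted. The mean of probe sets left 35 of the 36 genes, and the block within genotype gives no genotype effect.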
